A study of Mus musculus with 78 samples.

Results

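The comparison set 2 chromatin profiles of synchronized mouse C2C12 myotubes side by side at 1 time: Bio-EZH1, the biotin-tagged histone methyltransferase, and H3K27me3, the mark that this enzyme helps to place, both collected 24 h after a serum shock. Members were the samples that the labels name Bio-EZH1 or H3K27me3 at 24 h, which gave 3 replicates of each profile, or 6 of the 78 labelled samples. Their peak lists sorted 21755 protein-coding promoters, each a window of 3 kb on either side of the transcription start site (TSS). A profile was present at a promoter where all 3 of its replicates had a peak with a q-value under 0.01 there, and absent where none of its 3 lists held a peak at any q-value. Promoters with both profiles present are called shared, those with 1 present and the other absent EZH1-only or H3K27me3-only, those with both absent unmarked, and the remainder mixed. The same rule sorted regions, which are the merged peaks of the 3 replicates of a profile.

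The series followed 4 profiles over 6 time points with 3 replicates each, to ask where the EZH1 form of Polycomb repressive complex 2 (PRC2) sits on chromatin through the circadian cycle of muscle cells. C2C12 is a mouse myoblast line whose cells fuse into myotubes in differentiation medium, and both profiles came from such myotubes, differentiated for several days and synchronized with a high dose of horse serum. Bio-EZH1 chromatin came from a sorted pool of cells with a short hairpin against the endogenous Ezh1 gene that carry retroviral BirA, a biotin ligase, and the α isoform of EZH1 with an Avi tag. It was cross-linked with 2 reagents and pulled down with streptavidin. H3K27me3 chromatin came, by the study's methods, from C2C12 cells with no modified line named for it, was cross-linked with formaldehyde alone, carried a Drosophila spike-in and was pulled down with an antibody. The labels name the C2C12 line alone for both. Cross-linking, pulldown and peak calling mode (narrow for Bio-EZH1, broad for H3K27me3), and possibly the cell line, change together with the profile, so their parts in any difference between the lists cannot be told apart.

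PRC2 is a complex of the methyltransferases EZH1 or EZH2 with EED and SUZ12 that methylates lysine 27 of histone H3. The trimethylated form, H3K27me3, spreads over broad domains and is bound by PRC1, and genes under it are usually silent. In mammals PRC2 gathers at CpG-rich promoters of developmental regulators, and in differentiated cells such as myotubes EZH1 is the methyltransferase that stays expressed when EZH2 declines.

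Promoters from the top of each class by fold enrichment are shown to let their CpG content be compared, since CpG-rich sequence is where PRC2 is known to gather. Each runs 5′ to 3′ on the strand of its gene from 250 bases before to 50 bases after the TSS of the GENCODE M21 annotation on GRCm38.p6, and capitals mark CG dinucleotides. From the shared class these are Tchh (chr3:93442080-93442379, plus strand) and Lhx4 (chr1:155751635-155751934, minus strand).
Tchh: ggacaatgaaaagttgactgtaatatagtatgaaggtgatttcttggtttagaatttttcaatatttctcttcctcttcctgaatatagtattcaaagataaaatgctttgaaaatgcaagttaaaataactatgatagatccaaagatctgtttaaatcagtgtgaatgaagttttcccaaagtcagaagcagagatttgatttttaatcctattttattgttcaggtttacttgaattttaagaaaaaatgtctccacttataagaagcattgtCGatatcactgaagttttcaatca
Lhx4: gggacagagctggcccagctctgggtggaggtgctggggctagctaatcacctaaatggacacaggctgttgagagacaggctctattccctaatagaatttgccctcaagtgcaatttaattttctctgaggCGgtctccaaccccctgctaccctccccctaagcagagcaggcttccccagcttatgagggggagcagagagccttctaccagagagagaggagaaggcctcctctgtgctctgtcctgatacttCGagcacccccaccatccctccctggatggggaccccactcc
From the EZH1-only class they are Ptprf (chr4:118291356-118291655, minus strand) and Mmp15 (chr8:95352018-95352317, plus strand).
Ptprf: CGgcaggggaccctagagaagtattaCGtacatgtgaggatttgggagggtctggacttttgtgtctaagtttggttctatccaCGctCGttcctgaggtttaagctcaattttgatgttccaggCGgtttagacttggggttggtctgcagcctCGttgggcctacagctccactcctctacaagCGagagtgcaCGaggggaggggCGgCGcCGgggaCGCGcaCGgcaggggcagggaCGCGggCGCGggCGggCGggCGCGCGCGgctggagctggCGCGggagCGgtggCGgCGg
Mmp15: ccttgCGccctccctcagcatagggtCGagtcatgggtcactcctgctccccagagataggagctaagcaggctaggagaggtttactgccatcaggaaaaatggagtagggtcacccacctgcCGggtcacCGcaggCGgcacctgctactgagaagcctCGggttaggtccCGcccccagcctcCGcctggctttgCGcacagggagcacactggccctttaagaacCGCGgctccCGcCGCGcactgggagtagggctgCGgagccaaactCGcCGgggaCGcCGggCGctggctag
From the H3K27me3-only class they are Olfr70 (chr4:43700758-43701057, minus strand), Tekt4 (chr17:25454365-25454664, plus strand) and Gm9508 (chr10:77697184-77697483, minus strand).
Olfr70: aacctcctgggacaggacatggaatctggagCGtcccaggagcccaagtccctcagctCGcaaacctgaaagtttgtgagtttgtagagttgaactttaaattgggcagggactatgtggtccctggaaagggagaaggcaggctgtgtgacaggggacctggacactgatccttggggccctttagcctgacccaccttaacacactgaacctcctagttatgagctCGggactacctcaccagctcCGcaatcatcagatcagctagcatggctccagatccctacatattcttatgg
Tekt4: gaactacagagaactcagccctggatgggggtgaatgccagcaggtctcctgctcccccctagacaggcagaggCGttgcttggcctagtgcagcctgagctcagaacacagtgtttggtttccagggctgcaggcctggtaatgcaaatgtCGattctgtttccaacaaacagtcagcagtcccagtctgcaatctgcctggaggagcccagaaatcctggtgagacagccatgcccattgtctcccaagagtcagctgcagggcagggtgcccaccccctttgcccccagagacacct
Gm9508: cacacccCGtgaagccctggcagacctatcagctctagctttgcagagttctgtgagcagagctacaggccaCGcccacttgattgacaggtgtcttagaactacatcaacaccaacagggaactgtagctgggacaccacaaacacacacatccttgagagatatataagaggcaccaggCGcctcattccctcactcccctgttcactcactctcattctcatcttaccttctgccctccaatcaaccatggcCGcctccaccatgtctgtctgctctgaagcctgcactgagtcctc
The EZH1-only windows held 29 and 20 CG dinucleotides and the H3K27me3-only windows 4, 2 and 4. The shared windows of Tchh and Lhx4 held 1 and 2, although EZH1 was strongly enriched at both. Over whole classes the median number in this window was 25 at EZH1-only, 16 at shared and 6 at H3K27me3-only promoters, against 11 over all promoters. The E-box CACGTG, which reads the same on both strands and is the site of clock transcription factors, stood in 6.67% of EZH1-only, 7.84% of shared and 6.96% of H3K27me3-only windows, close to the 7.81% of all promoters. TATAAA on either strand stood in 8.21%, 9.11% and 12.4% of them, against 12.7% of all.

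The lists of the 2 profiles differed in size and shape. Bio-EZH1 lists held 19123, 16107 and 15046 peaks with median widths of 728 to 765 bp, and covered 24.1 to 30.2 Mb. H3K27me3 lists held 49209, 48815 and 50242 peaks with median widths of 2249 to 2315.5 bp, and covered 252 to 267 Mb. The highest fold enrichment of a list (signal divided by the background modelled by the peak caller) was 94.6 to 112 for Bio-EZH1 and 12.4 to 16.1 for H3K27me3, so folds were ranked within a library and are not compared between profiles. Read depth is unknown, and the spread between replicates is the only error available. Overlap was measured on peaks with a q-value under 0.01, which covered 23.3 to 29.1 Mb for Bio-EZH1 and 200 to 208 Mb for H3K27me3. Replicates of a profile overlapped well, with a mean Jaccard index (shared over joint covered length) of 0.588 for Bio-EZH1 and 0.772 for H3K27me3, against 0.115 between the profiles. The overlap between profiles was lopsided: 90.9% ± 0.449 (SD over 9 pairs of libraries) of the length under EZH1 peaks lay under H3K27me3 peaks, and 11.6% ± 1.09 of the length under H3K27me3 peaks lay under EZH1 peaks. EZH1 peaks also lay nearer to genes. Peaks within 3 kb of a protein-coding TSS made up 20.1%, 21.1% and 22.3% of the Bio-EZH1 lists and 11.8%, 12.0% and 11.7% of the H3K27me3 lists, a difference of 9.34 percentage points between the means of 21.2% ± 1.06 and 11.8% ± 0.134 (SD, n = 3). The ranges did not overlap, and the two-sided exact permutation test gave p = 0.1, the smallest that 3 against 3 allows. With peaks of a q-value under 0.01 the means were 22.2% and 19.8%, and the difference was 2.41 points. P-values here measure the spread between these samples only.

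Most promoters with EZH1 had H3K27me3 as well, whereas many promoters with H3K27me3 had no EZH1. EZH1 was present at 2410 promoters, 11.1% of all, and H3K27me3 at 4267, or 19.6%. Both were present at 2042 shared promoters, 9.39% of all, which are 84.7% of those with EZH1 and 47.9% of those with H3K27me3. The EZH1-only class held 195 promoters, 0.896% of all and 8.09% of those with EZH1. The H3K27me3-only class held 1538, that is 7.07% of all and 36.0% of those with H3K27me3, while 14459 promoters (66.5%) were unmarked and 3521 (16.2%) mixed. The smaller classes depended on how many peaks were kept: with each list reduced to its 15046 strongest peaks by fold the EZH1-only class held 529 promoters (22.4% of those with EZH1, with 70.9% shared), and the H3K27me3-only class held 834 with a q-value under 0.001 for presence and 2554 with all deposited peaks. Among the mixed, 173 had EZH1 present and H3K27me3 in some replicates or above the q-value threshold, and 687 had H3K27me3 present and EZH1 likewise. The median EZH1 fold percentile of the 173 was 75.3, close to the 75.8 of the EZH1-only class just inside the rule. The EZH1-only promoter nearest to an H3K27me3 peak was Gnao1, 3041 bp from its TSS. Distances from the TSS cannot fall below 3 kb in this class by the rule.

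Peaks were stronger and wider where both profiles met. These values come from the lists that formed the classes and are a description. The strongest EZH1 peak at shared promoters had a median fold of 7.19, at percentile 91.1 of its library, against 3.93 and percentile 75.8 at EZH1-only promoters. H3K27me3 at shared promoters had a median fold of 3.85 and percentile 95.1, against 3.15 and 84.5 at H3K27me3-only promoters. Widths followed the same order, with EZH1 peaks of 3254 bp at shared and 1331 bp at EZH1-only promoters and H3K27me3 peaks of 12.9 kb at shared and 10.4 kb at H3K27me3-only promoters (medians). Across the 2042 shared promoters the fold percentiles of both profiles were weakly related (Spearman rho 0.26, across promoters, which share the same libraries).

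Of the 10 shared promoters with the highest ranks over all 6 libraries, 6 belonged to transcription factors, whose share of all promoters was not counted. At Pax7, the transcription factor of muscle stem cells, EZH1 folds were 88.8, 82.3 and 88.2 and H3K27me3 folds 8.63, 8.76 and 7.60. Tchh, which encodes the hair follicle protein trichohyalin, had EZH1 folds of 91.5, 83.1 and 89.0 and H3K27me3 folds of 7.76, 8.31 and 7.57. Lhx4, a LIM homeodomain factor of the pituitary, had EZH1 folds of 80.0, 81.3 and 71.4 and H3K27me3 folds of 7.39, 7.24 and 7.34. The replicates of each profile stood close together at all of these genes. Prdm12, Vwa5b2, Wnt3a (a secreted ligand), Onecut3, Nr2e1 (a nuclear receptor of neural stem cells), Nkx2-5 (a homeodomain factor of the heart) and the potassium channel gene Kcnj4 completed the leading 10, and each had SUZ12 peaks in all 18 SUZ12 libraries. Over the shared class, the share with SUZ12 peaks in 3 of 3 libraries ran from 54.1% at 32 h to 98.2% at 28 h. At most 54.1% of the class could thus have them in all 18 libraries.

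The leading EZH1-only promoters had lower EZH1 folds than the leading shared ones, with Ptprf above the others. Ptprf, a receptor protein tyrosine phosphatase, had EZH1 folds of 32.3, 33.1 and 34.8 and its nearest H3K27me3 peak 5284 bp from the TSS. Pdgfb, a platelet-derived growth factor chain, had folds of 22.5, 20.5 and 19.9, and Mmp15, a membrane-bound matrix metalloproteinase, 18.2, 18.8 and 19.7. The nearest H3K27me3 peak lay 13930 bp from the TSS of Pdgfb and 30865 bp from that of Mmp15. The orphan receptor Gpr27, Ago4 of the Argonaute family, Grwd1, Hdgfl3, Neto2 (an auxiliary subunit of glutamate receptors) and Bahcc1 were also among the leading promoters, with mean fold percentiles down to 95.4. All of these leading promoters had SUZ12 peaks in 3 of 3 libraries at 24 h, against 28 of the 195 promoters of the class. Several of them had H3K27me3 peaks within 3 kb of the TSS at other times. These stood in 7 libraries at Neto2, 6 at Hdgfl3, 4 each at Gpr27 and Mmp15, 3 at Ptprf and 1 at Pdgfb. Ago4, Grwd1 and Bahcc1 had none in any H3K27me3 library, as did 133 of the 195 promoters of the class. Over all 195 promoters of the class the mean fold ran from 2.50 at Casc4 to 33.4 at Ptprf.

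The leading H3K27me3-only promoters had H3K27me3 folds around 6, below most of the leading shared promoters. Olfr70, an olfactory receptor gene, had H3K27me3 folds of 6.30, 6.36 and 6.11, Tekt4, a tektin of cilia and flagella, 6.36, 6.17 and 5.84, and Gm9508, a predicted gene, 6.09, 6.36 and 5.84. Ltbp3 and Sssca1 (folds 6.01, 6.05 and 6.09 for both) shared 1 peak, and so did Yju2 and Zfp119b (6.01, 5.61 and 5.82), so these pairs are not independent cases. Mien1, Cyp26b1, which degrades retinoic acid, and Cacng2, an auxiliary subunit of glutamate receptors, completed the list. None of these genes had a SUZ12 peak in any SUZ12 library at 24 h, and neither did 1182 of the 1538 promoters of the class (76.9%). With a window of 1 kb 5 of the 10 stayed in the class, and with the TSS of any transcript 8 did. Olfr70 belongs to a large family of similar genes, and reads were kept only at a high mapping quality, so signal at such families is uncertain.

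**Figure D1:**
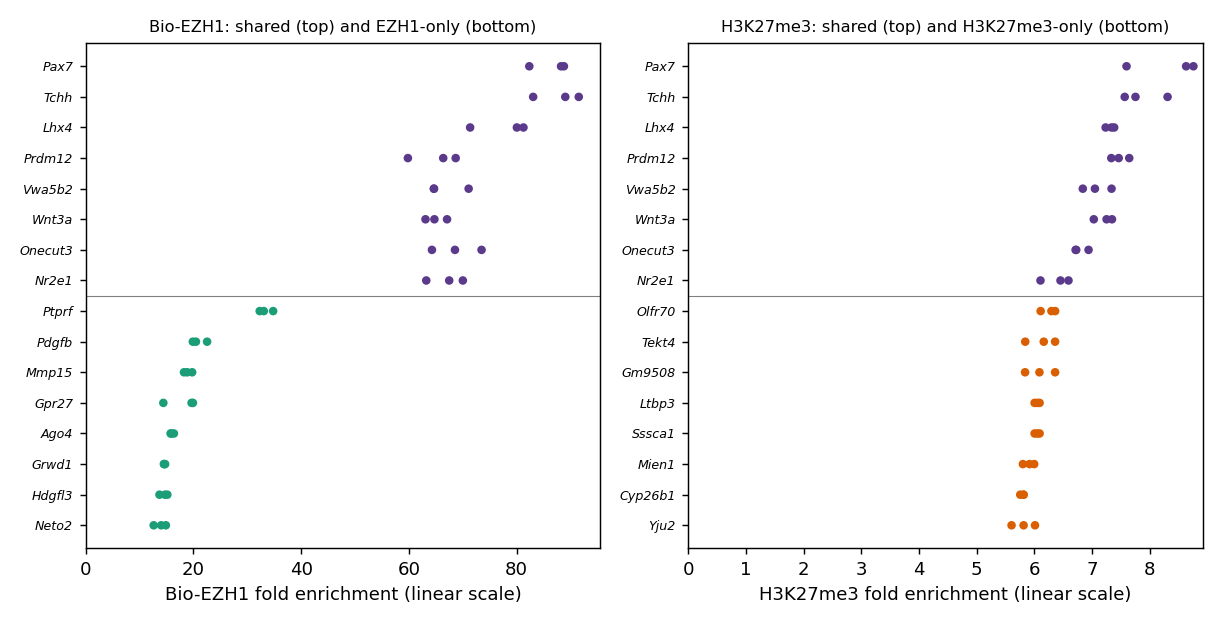
Fold enrichment of the strongest peak within 3 kb of the TSS in each of the 3 replicates (points, linear axis) at the 8 leading promoters of each class: Bio-EZH1 at shared and EZH1-only promoters on the left, H3K27me3 at shared and H3K27me3-only promoters on the right. EZH1 folds of the leading shared promoters lie far above those of the leading EZH1-only promoters, of which Ptprf is the highest at 32.3 to 34.8, and the H3K27me3 groups lie nearer to each other.

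Developmental regulators were the gene group with both profiles most often. Of 112 developmental transcription factors outside the Hox clusters, 77 (68.8%) were shared, against 9.39% of all promoters, and 4 (3.57%) were EZH1-only, against 0.896% of all. Gsx2, a homeodomain factor of the forebrain, had EZH1 folds of 69.3, 73.9 and 71.8, and Lhx1 62.8, 58.1 and 51.7. EZH1-only members included Foxc2, Irx2 and Irx3, with EZH1 fold percentiles of 74.5, 31.7 and 87.6. H3K27me3-only members included Irx4, Nkx6-2 and Six2. The nearest EZH1 peaks to Irx4 and Nkx6-2 lay 3255 and 3189 bp from the TSS, just outside the window, whereas that to Six2 lay 20975 bp away.

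The 39 Hox genes, which set position along the body axis, divided between shared (20, or 51.3%) and unmarked (16, or 41.0%), against 9.39% and 66.5% of all promoters, with Hoxc12 as the EZH1-only member. Hoxb2, Hoxb3, Hoxb4 and Hoxb5 lay in 1 EZH1 region and had the same folds, 50.2, 47.1 and 45.0 for EZH1 and 7.50, 7.60 and 7.21 for H3K27me3. Hoxd10 had EZH1 folds of 51.8, 49.1 and 50.1. Hoxc12 had EZH1 folds of 5.15, 4.26 and 4.21 with the nearest H3K27me3 peak 17238 bp away. Of 51 ligands of the Wnt, Fgf, Bmp and hedgehog families 28 (54.9%) were shared, led by Fgf9 (EZH1 folds 76.7, 83.8 and 71.9) and Ihh (65.7, 60.9 and 56.7). Bmp8a, Fgf2, Wnt10a and Wnt5b (7.84%, against 0.896% of all) were EZH1-only. Wnt5b was the strongest of them (11.0, 9.61 and 10.4) and lay 72312 bp from any H3K27me3 peak of the 24 h lists. At other times an H3K27me3 peak stood within 3 kb of the TSS in 1 library at Wnt5b and 5 at Fgf2. Bmp8a and Wnt10a had none. Proneural and neuronal genes had 19 shared promoters of 30 (63.3%), with Neurod2 at EZH1 folds of 59.8, 54.7 and 70.5 and Neurog1 at 20.2, 12.2 and 17.2.

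Myogenic regulators and muscle structural genes were unmarked at shares near that of all promoters (66.5%), and a few of them carried both profiles. Of 15 myogenic regulators 11 (73.3%) were unmarked, among them Myod1, Myog, Myf5 and Mef2c, and 3 (20.0%) were shared, namely Pax7, Eya2 and Msc. Muscle structural genes had 24 unmarked promoters of 41 (58.5%), Ttn, Des and Tnnt3 among them, and 7 shared (17.1%). Over all promoters 9.39% were shared. Ckm, the muscle creatine kinase, had EZH1 folds of 17.8, 15.5 and 13.7 and H3K27me3 folds of 3.10, 3.35 and 3.27. The myosin light chain gene Myl3 had EZH1 folds of 52.1, 46.6 and 44.7, Myl2 5.25, 6.04 and 5.70, the heavy chain gene Myh4 3.55, 4.60 and 3.90, and Acta1, the skeletal α-actin gene, 4.19, 3.62 and 4.47. The lists hold no transcript levels, so whether these genes were expressed in the same cells was not tested. Tcap, a protein of the sarcomere, was H3K27me3-only, with an EZH1 peak 3008 bp from its TSS.

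Clock genes, the subject of the series, held both profiles at 3 of 21 promoters (14.3%, against 9.39% of all), and 11 (52.4%, against 66.5% of all) were unmarked. Npas2, a partner of BMAL1, had EZH1 folds of 30.0, 29.2 and 27.7, Hlf, a clock output factor, 13.1, 11.6 and 12.2, and the nuclear receptor gene Rora 7.17, 8.23 and 10.8. Per1, Per2, Nr1d1 and Dbp had no peak of either profile, and Arntl and Cry1 had an EZH1 peak in replicate 1 alone. Among PRC2 genes Epop alone was shared (EZH1 folds 22.3, 19.7 and 19.7), and 11 of 12 (91.7%), with Ezh1, Ezh2, Suz12 and Eed among them, were unmarked. Its H3K27me3 folds of 6.82, 2.37 and 2.47 were high in replicate 1. PRC1 genes had 4 shared promoters of 20 (20.0%), with Cbx8 the strongest (EZH1 43.7, 42.4 and 41.2), and Bmi1 and Cbx2 were EZH1-only.

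Other groups were set against the 9.39% of all promoters that were shared. None of 26 cell cycle genes, 23 housekeeping genes and 80 cytosolic ribosomal protein genes was shared, and the shorter of these lists would hold few at that share, although Ccnd1 and Ccnd2 in a separate list of 13 cell cycle inhibitors and D cyclins were. At Ccnd1 the H3K27me3 folds of 12.7, 13.7 and 12.4 had a mean percentile of 99.997, with EZH1 folds of 16.4, 16.4 and 19.02. Markers of other tissues were shared at 8 of 26 promoters (30.8%) for adipose, bone, blood, heart and liver, 5 of 20 for leukocytes and 6 of 20 (30.0%) for epithelium and endothelium. Cdh1 and Epcam, adhesion genes of epithelia, were EZH1-only, at 60427 and 49391 bp from any H3K27me3 peak of the 24 h lists. Potassium channels had 40 shared promoters of 94 (42.6%) and collagens 13 of 44 (29.5%). Among 1093 olfactory receptor genes 49 (4.48%) were H3K27me3-only, below the 7.07% of all promoters, and 9 were shared. Keratins and their associated proteins had 18 H3K27me3-only promoters of 110 (16.4%) and 10 shared (9.09%).

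**Figure D2:**
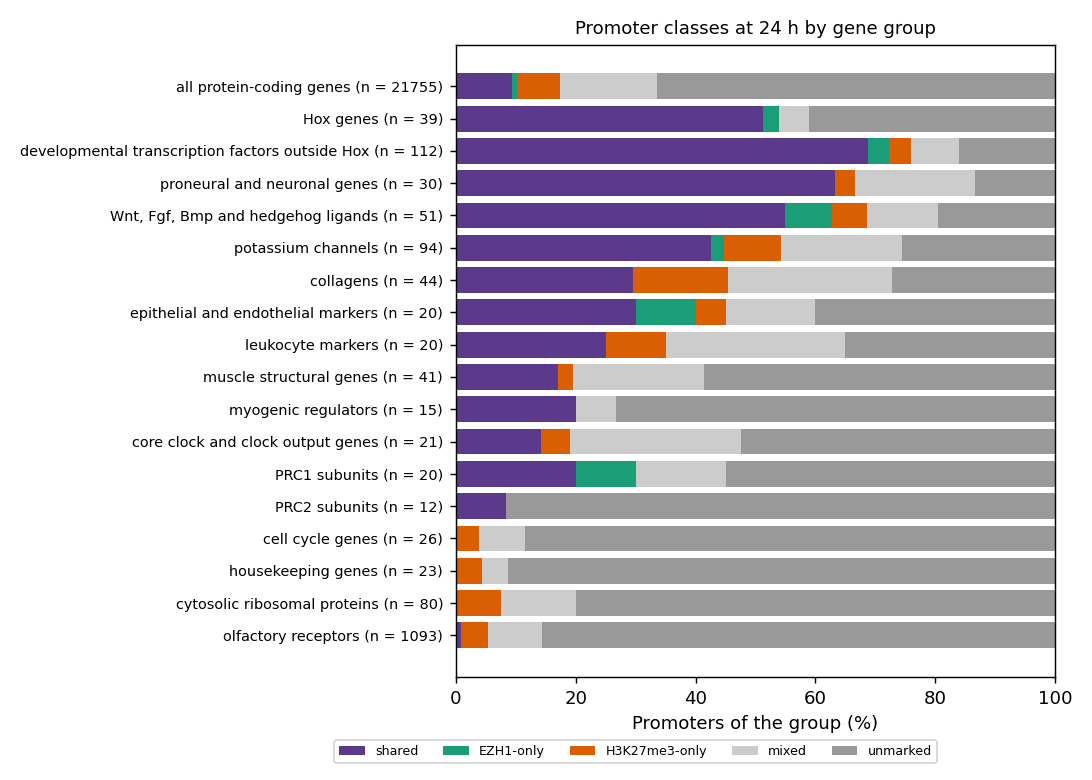
Share of each gene group's promoters (horizontal axis, percent, with the number of genes after each name) in the 5 classes at 24 h, with all 21755 protein-coding genes in the uppermost bar. The shared class takes 68.8% of the developmental transcription factors outside Hox and 0% of the cell cycle, housekeeping and ribosomal protein genes, against 9.39% of all genes.

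The mark was widest where it met EZH1. Of 6930 EZH1 regions, 6273 (90.5%) were shared with H3K27me3, 282 (4.07%) were EZH1-only and 375 mixed. Of 13975 H3K27me3 regions, 4193 (30.0%) were shared, 6564 (47.0%) were H3K27me3-only and 3218 mixed. Shared H3K27me3 regions had a median width of 15397 bp and H3K27me3-only regions one of 7189.5 bp, a ratio of 2.14. A wide region meets a peak of another profile more often by its width alone, and this part of the difference was not tested. The share of regions that were shared was 16.6% under 5 kb, 20.1% from 5 to 10 kb, 31.8% from 10 to 20 kb, 48.6% from 20 to 40 kb and 73.6% over 40 kb, while the H3K27me3-only share went from 66.3% to 13.7%. The number of EZH1 regions per 100 kb of H3K27me3 region did not increase in step, at 5.36 under 5 kb, 2.76, 2.58 and 2.66 in between, and 3.49 over 40 kb. The share of H3K27me3 region length under EZH1 peaks was 10.3% under 5 kb, and rose from 7.80% through 8.98% and 10.9% to 15.4% over 40 kb. Regions that hold no protein-coding TSS also differed, with medians of 14233 bp when shared and 6969 bp when H3K27me3-only.

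Seen from EZH1, the surrounding domain was much wider than the EZH1 region. The domain around a shared EZH1 region had a median width of 24386 bp (quartiles 11418 and 54723 bp), against 9486 bp over all H3K27me3 regions, and wide domains count once for each EZH1 region they hold. EZH1 regions took up a median of 12.0% of the width of their domain. The centre of 61.4% of them lay nearer to the middle of the domain than to its edge. Most occupied H3K27me3 regions held 1 EZH1 region (2712), 1147 held more, 168 held 5 or more, and the highest number was 24, in the region around Irf8 (chr8:120724563-121096130, 371568 bp). Over the 6273 shared EZH1 regions the fold percentile of EZH1 and the width of its domain had a Spearman rho of −0.05 (the regions share libraries and domains). Over the 2042 shared promoters the rho of EZH1 fold percentile and H3K27me3 peak width was 0.20, and the median EZH1 percentile was 87.9 where that peak was under 5 kb, 90.4, 91.3 and 92.6 in the bins between, and 94.7 over 40 kb.

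The widest EZH1 regions lay over gene clusters and developmental loci. One of 110261 bp covered 8 TSSs of the HoxB cluster (chr11:96248624-96358884), and another of 69604 bp covered 9 of the HoxD cluster (chr2:74647125-74716728). Those at Six6 (53516 bp) and Hand2 (49135 bp) followed. EZH1-only regions were narrower, with a median of 1492.5 bp against 2744 bp for shared ones. The widest were 9864 bp at Bahcc1, 9122 bp inside Mme, 8250 bp at Neto2, 7777 bp at Gpr27 and 6452 bp at Ebf3. The nearest H3K27me3 peak at 24 h lay 214 bp from the region at Gpr27, 1222 bp from Neto2 and 4070 bp from Ebf3. It lay 19298 bp from the region at Bahcc1 and 254008 bp from that inside Mme. Regions of EZH1 alone were mostly promoters: 207 of 282 (73.4%) lay within 3 kb of a protein-coding TSS, against 31.6% of shared EZH1 regions, and their median distance to an H3K27me3 peak was 7412 bp. When EZH1 regions were ranked by fold and divided into 4 groups of equal size, the share near a protein-coding TSS was 17.1% in the lowest and 67.2% in the highest, and the EZH1-only share was 5.08% and 2.89%.

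**Figure D3:**
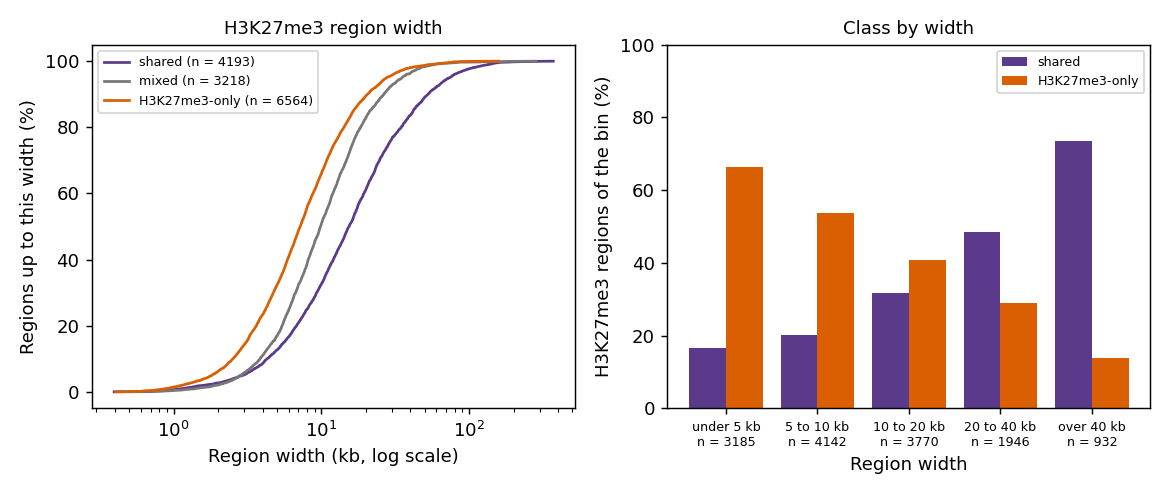
Width of H3K27me3 regions at 24 h by class: on the left, the cumulative share of regions up to each width (kb, log axis); on the right, the percent of regions in each width bin that were shared with EZH1 or H3K27me3-only, with the number of regions below each pair of bars. The shared share grows from 16.6% under 5 kb to 73.6% over 40 kb, and the H3K27me3-only share shrinks from 66.3% to 13.7%.

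H3K27me3 without EZH1 was over-represented on the X chromosome, although 1230 of the 1538 H3K27me3-only promoters lay on autosomes. Of the H3K27me3-only regions 992 of 6564 (15.1%) lay on X. Of the 1538 H3K27me3-only promoters 308 (20.0%) lay on X, against 33 of 2042 shared promoters (1.62%) and 948 of all 21755 (4.36%), and 2 of the 195 EZH1-only promoters lay there. X held 12.5% to 12.9% of the length under H3K27me3 peaks with a q-value under 0.01 in the 3 libraries and 1.19% to 1.21% of that under EZH1 peaks. The 5 widest H3K27me3-only regions were all on X, and the widest (chrX:100388187-100546711, 158525 bp) covered 4 TSSs with Awat2 among them. The blood factor gene Gata1 and the glycolytic gene Pgk1 were X-linked members of the H3K27me3-only class. On autosomes alone 51.5% of the promoters with H3K27me3 were shared and 31.5% H3K27me3-only, and the median region widths were 15226.5 bp and 6597.5 bp. The copy number of X in these cells was not tested.

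Most H3K27me3-only promoters lay in domains without EZH1, and a smaller part lay in domains that EZH1 occupied elsewhere. Of the 1538 promoters, 918 (59.7%) stood in a domain that was itself H3K27me3-only, 298 in a mixed one and 318 (20.7%) in a shared one, where the nearest EZH1 peak lay a median of 5126.5 bp from the TSS. Krt5, a keratin of basal epithelium, carried an H3K27me3 peak of 63.3 kb with the nearest EZH1 peak 30116 bp away. Over the class the median distance to an EZH1 peak was 18292.5 bp. For EZH1-only promoters the median distance to an H3K27me3 peak was 12468 bp, with 90 of 195 (46.2%) within 10 kb. Unmarked promoters lay farther from H3K27me3 peaks, at a median of 43910 bp, with 2600 of 14459 (17.98%) within 10 kb.

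The classes differed in CpG content, which the rule had not used. The observed to expected CpG ratio within 500 bp of the TSS had a median of 0.801 at EZH1-only, 0.634 at shared and 0.308 at H3K27me3-only promoters, against 0.558 over all promoters and 0.590 at unmarked ones. A ratio over 0.6, a usual mark of CpG islands, was reached by 83.1% of EZH1-only, 55.4% of shared and 21.0% of H3K27me3-only promoters, against 46.3% of all. Among the EZH1-only promoters Gpr27 reached 1.01 and Ptprf 0.955. Shared promoters with narrow H3K27me3 peaks (under 5 kb) had a median of 0.716 and those in wider bins 0.584 to 0.626. Regions followed the same order, with medians of 0.790 for EZH1-only and 0.286 for shared EZH1 regions, most of which lie away from promoters.

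**Figure D4:**
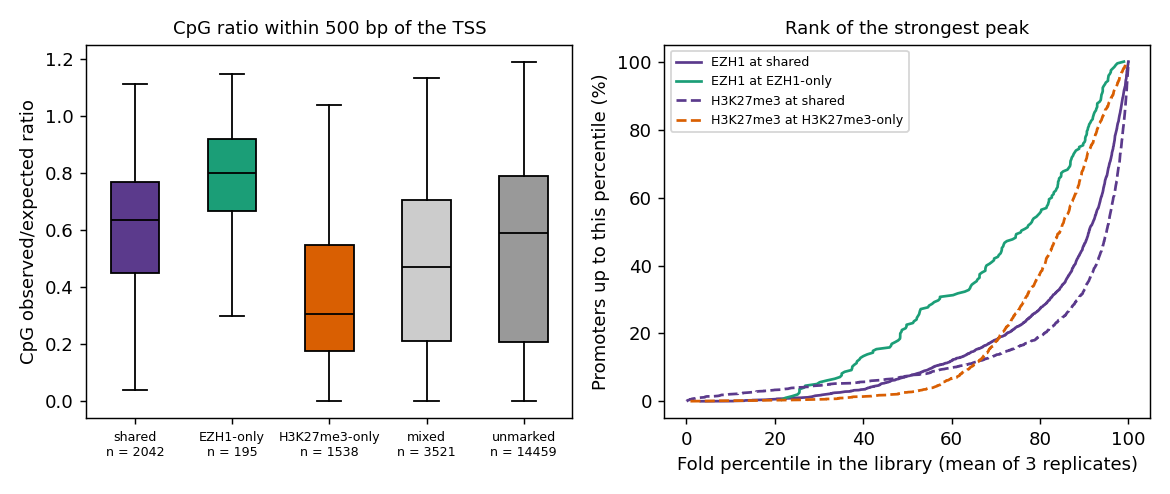
On the left, the observed to expected CpG ratio within 500 bp of the TSS by class (line, median; box, quartiles; whiskers, the farthest value within 1.5 box lengths); on the right, the cumulative share of promoters against the fold percentile of their strongest peak in its library (mean of 3 replicates). EZH1-only promoters have the highest ratios (median 0.801) and H3K27me3-only promoters the lowest (0.308), and EZH1 ranks lower at EZH1-only promoters (median percentile 75.8) than at shared ones (91.1).

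SUZ12, the PRC2 subunit needed for its activity, was profiled in the same line as Bio-EZH1 and did not enter the rule, so its 18 libraries at 6 time points could be set against the classes. The labels give SUZ12 as the antibody and were followed, but the file names can be read as short for streptavidin, which pulled down Bio-EZH1, and which reagent made these lists was not tested. At 24 h SUZ12 peaks stood at 75.7%, 77.3% and 78.7% of shared, 18.5%, 20.0% and 18.97% of EZH1-only, 12.9%, 15.4% and 16.7% of H3K27me3-only and 0.242% to 0.373% of unmarked promoters. The groups of replicates did not overlap between shared promoters and the other classes. Over the 6 time points the mean share was 79.5% ± 15.3 at shared and 36.7% ± 35.3 at EZH1-only promoters (SD over time points), and shared promoters were higher in 18 of 18 libraries, by 42.9 percentage points (exact sign-flip test over time points, p = 0.03125, adjusted p = 0.0521). Against H3K27me3-only promoters (13.2% ± 3.61) the difference was 66.3 points, in 18 of 18 libraries (exact sign-flip test, p = 0.03125, adjusted p = 0.0521). Both p-values are the smallest that 6 time points allow, and after Benjamini-Hochberg adjustment over the 5 tests with SUZ12 and HA-EZH1 neither passed 0.05.

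EZH1-only promoters were the class whose SUZ12 share varied most with time. It was 67.0% at 12 h and 31.3% at 16 h, stood at 4.96% at 20 h, was 19.1% when the classes were formed, reached 91.6% at 28 h and ended with 5.98% at 32 h, while shared promoters stayed between 61.1% and 99.1% and H3K27me3-only promoters between 8.54% and 18.7%. EZH1-only promoters were thus above H3K27me3-only promoters at 4 time points and below them at 20 h and 32 h, and the mean difference of 23.5 points did not pass the test (exact sign-flip p = 0.1875, adjusted p = 0.234). Without the 28 h libraries it was 13.6 points. SUZ12 peaks stood in 3 of 3 libraries at 28 h at 170 of the 195 EZH1-only promoters (87.2%) and at 28 (14.4%) at 24 h. At 10 of them there was none in any of 18 libraries. SUZ12 lists held 31246 to 31494 peaks at 28 h and 35012 to 40379 at 24 h. They held 25961 to 32279 peaks at 12 h, 33403 to 36210 at 16 h, 21487 to 24640 at 20 h and 21419 to 29941 at 32 h. The times with the lowest EZH1-only shares, 20 h and 32 h, had the lowest mean list lengths. Median folds of the lists were 2.61 to 2.84 at 12 h, 2.63 to 2.70 at 28 h, 3.20 to 3.34 at 20 h and 2.87 to 3.15 at 32 h. The part of list length and fold in these shares was not tested.

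HA-EZH1, by its name another tagged form of the enzyme, stood at fewer shared promoters than Bio-EZH1 or SUZ12 did, and its share varied with time. Its mean share was 11.5% ± 11.0 at shared, 7.41% ± 8.52 at EZH1-only and 2.81% ± 1.28 at H3K27me3-only promoters over 6 time points. At shared promoters it was 24.1% at 12 h, 19.5% at 16 h and 20.7% at 32 h, and between 0.930% and 2.27% from 20 to 28 h. At EZH1-only promoters it was 20.3% at 12 h. At 24 h, the time of the classes, the 3 shares were 0.930%, 0% and 1.34%, against 1.29% of unmarked promoters. Shared promoters exceeded EZH1-only promoters by 4.06 points, in 17 of 18 libraries (exact sign-flip test, p = 0.03125, adjusted p = 0.0521), and EZH1-only exceeded H3K27me3-only promoters by 4.60 points, in 9 of 18 (exact sign-flip test, p = 0.25, adjusted p = 0.25). Unmarked promoters had 12.2% at 12 h and 11.1% at 32 h, above the H3K27me3-only class at both times. They had 1.40% at 20 h and 3.61% at 28 h, against 1.32% and 2.27% of shared promoters. From 20 to 28 h unmarked promoters thus exceeded shared ones, and at 12, 16 and 32 h they were below them.

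At the other 5 time points, outside the rule, Bio-EZH1 and H3K27me3 each stood at most promoters of the classes that held them. The classes were not formed anew at these times. At EZH1-only promoters Bio-EZH1 was lowest at 20 h (57.9%), and 30 of the 195 had it in 3 of 3 libraries at 24 h and at no other time. Bio-EZH1 peaks stood at 88.8% ± 5.59 of shared and 72.9% ± 12.5 of EZH1-only promoters, a difference of 16.0 points in 15 of 15 libraries (exact sign-flip test, p = 0.0625, adjusted p = 0.0781). H3K27me3 peaks stood at 94.9% ± 9.76 of shared and 82.5% ± 16.0 of H3K27me3-only promoters, a difference of 12.5 points in 15 of 15 libraries (exact sign-flip test, p = 0.0625, adjusted p = 0.0781). At 12 h H3K27me3 reached 77.5% of shared and 55.4% of H3K27me3-only promoters, the lowest shares of any time. The smallest p-value that 5 time points allow is 0.0625, so none of these tests could pass 0.05.

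The profile that was absent at 24 h stayed rare at those promoters. H3K27me3 peaks at other times stood at 6.60% ± 3.66 of EZH1-only and 0.395% ± 0.208 of unmarked promoters, a difference of 6.20 points in 15 of 15 libraries (exact sign-flip test, p = 0.0625, adjusted p = 0.0781). Of the 195 EZH1-only promoters 133 had no H3K27me3 peak in any of 18 libraries, 22 had one in 3 of 3 libraries at another time, and 74 had a Bio-EZH1 peak in all 18 Bio-EZH1 libraries. Bio-EZH1 at other times stood at 3.16% ± 2.98 of H3K27me3-only and 0.404% ± 0.457 of unmarked promoters (difference 2.76 points, 15 of 15 libraries, exact sign-flip test, p = 0.0625, adjusted p = 0.0781). The share at H3K27me3-only promoters was 8.30% at 32 h and at most 3.16% at the other times.

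The greater width of H3K27me3 at shared promoters was found at 4 of the other 5 time points. Median peak widths were 15.3 kb at shared and 12.0 kb at H3K27me3-only promoters at 16 h, 10.4 and 7.69 kb at 20 h, 12.5 and 10.8 kb at 28 h, and 11.0 and 8.02 kb at 32 h. At 12 h the order was the opposite, 7.25 ± 0.270 kb at shared and 10.04 ± 1.27 kb at H3K27me3-only promoters (SD, n = 3), and the replicates did not overlap. The mean difference of median log2 widths was 0.20 ± 0.38 (exact sign-flip test over 5 time points, p = 0.375, adjusted p = 0.375), so the width difference did not pass the test in libraries outside the rule.

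**Figure D5:**
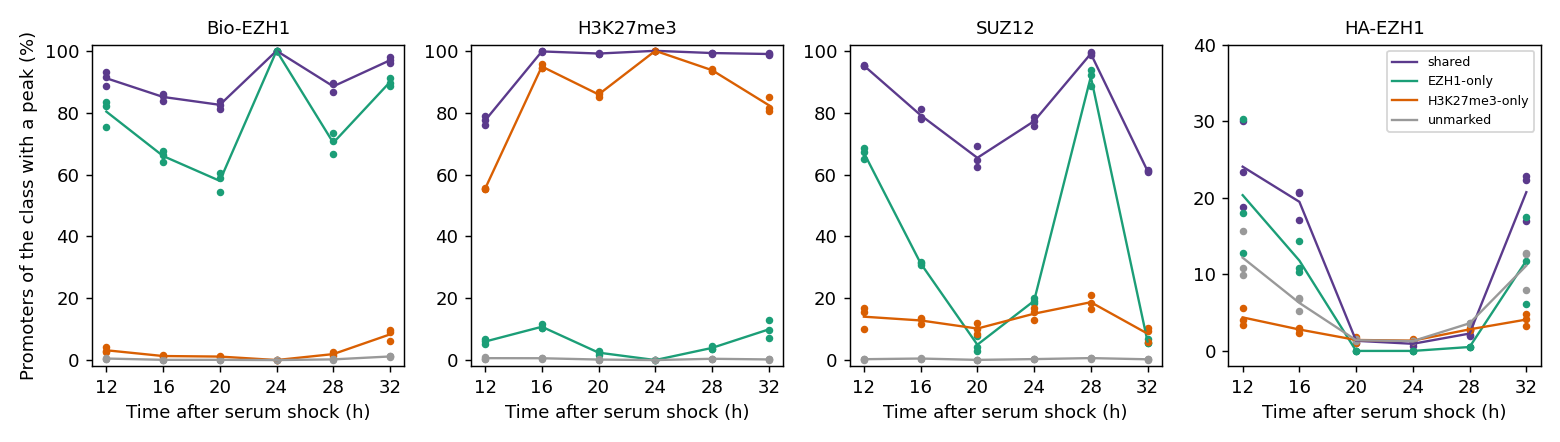
Share of the promoters of each 24 h class with a peak (q-value under 0.01) of Bio-EZH1, H3K27me3, SUZ12 and HA-EZH1 against time after the serum shock (h): points, 3 replicates; lines, their means; the HA-EZH1 axis ends at 40%. Values of Bio-EZH1 and H3K27me3 at 24 h are 0% or 100% by the rule, and the SUZ12 share of EZH1-only promoters moves between 4.96% at 20 h and 91.6% at 28 h.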

How the data were processed

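The deposited files are MACS2 peak lists of single ChIP-seq libraries, 72 in all, and no read counts, so depth is unknown and the spread between replicates is the error given. Per the study's methods, the authors used BBDuk for trimming, BWA 0.7.17 for alignment to mm10 and to Drosophila BDGP6, disambiguate to assign reads to a genome, Picard to drop duplicates and SAMtools 1.7 to keep reads of high mapping quality, and called peaks in each library with MACS2 2.2.4. Tool and build names also stand in the submitters' processing notes. Narrow calls (largest q-value 0.05) were deposited for Bio-EZH1, SUZ12 and HA-EZH1 and broad calls (largest q-value 0.1) for H3K27me3. The methods give a q-value limit of 0.05 for the calls, and the authors later took peaks common to the replicates at an adjusted p-value under 0.01; the deposited lists hold weaker peaks and are separate for each library, so that selection is not in them. The authors' fold enrichment is a ratio of signal to modelled background, which depends on depth and background, and the deposited q-values are on a −log10 scale. The names of the SUZ12 files can stand for streptavidin, and the labels were followed.

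Peaks were set against GENCODE M21 on GRCm38.p6 (19 autosomes and X), and peak ends lay inside its chromosome lengths. An overlap of 1 bp sufficed. Differences between classes were computed within each library, averaged per time point and tested by a two-sided exact sign-flip test over time points; Benjamini-Hochberg adjustment ran over 5 tests with SUZ12 and HA-EZH1 and over 5 tests with the same profiles at other times. Class counts, folds, widths and gene groups at 24 h carry no test. Genes named were the 10 of each class with the highest mean fold percentile, at most 1 per cluster of TSSs under 3 kb apart, of each list the members with the highest percentiles and those in the EZH1-only class, and a fixed set of clock, muscle and Polycomb genes. Regions named were taken from the 5 widest and the 5 strongest of each class, and Gnao1 as the EZH1-only promoter nearest to an H3K27me3 peak. Promoters, gene lists and tests were chosen with earlier results of these data known. Alternatives changed the q-value, the window, the TSS definition, the number of peaks, the overlap, the merging distance and the replicates. The overlap and class steps were tested on simulated data with known answers. Python 3.11.15, pandas 2.3.3, NumPy 2.4.6, SciPy 1.17.1 and pysam 0.24.0 were used. A few genes and sequences that the rule names are not reported here.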

Additional observations from a re-analysis of the deposited data

How the results depend on the processing

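With peaks as deposited counted for presence, 2554 promoters were H3K27me3-only, 88.5% of EZH1 promoters were shared, and 39.7% and 46.5% of H3K27me3 promoters were shared and H3K27me3-only; of regions, 93.9% with EZH1 and 14.8% with H3K27me3 were shared and 71.5% H3K27me3-only, with median widths of 14401.5 bp (shared) and 3987 bp. With a q-value under 0.01 also for absence, 11.0% of EZH1 promoters and 5.99% of EZH1 regions were EZH1-only. With a q-value under 0.001 for presence, 834 promoters were H3K27me3-only, and the shares were 79.7% of EZH1 promoters shared, 55.3% of H3K27me3 promoters shared and 25.7% H3K27me3-only. A window of 1 kb gave 81.9% shared and 10.6% EZH1-only, the TSS of any transcript 86.5% shared. All gene records gave 86.7% shared and 6.71% EZH1-only of those with EZH1, and 38.6% shared and 44.1% H3K27me3-only of those with H3K27me3. With each list reduced to its 15046 strongest peaks by fold, 529 promoters were EZH1-only (22.4%) and 70.9% shared; of regions, 82.5% with EZH1 were shared and 12.0% EZH1-only, and 36.3% with H3K27me3 were shared and 41.3% H3K27me3-only. By its construction this setting drops the weaker H3K27me3 peaks. When the other profile had to cover most of a region, 87.8% of EZH1 and 4.54% of H3K27me3 regions were shared. Peaks merged within 3 kb had median widths of 20182 bp (shared) and 8373 bp (H3K27me3-only). On autosomes, an alternative chosen after seeing the data, 51.5% of H3K27me3 promoters were shared and 31.5% H3K27me3-only, as were 43.5% of regions, with a median width of 6597.5 bp. Leaving out 1 replicate gave 46.2% to 50.9% of H3K27me3 promoters shared and 37.5% to 41.1% H3K27me3-only; of H3K27me3 regions, 26.6% to 34.2% and 49.7% to 53.7%, with median widths of 14230 to 15012.5 bp and 5918 to 7431 bp. Wherever widths were computed (peaks as deposited or merged, autosomes, 1 replicate left out), regions shared with EZH1 were wider.

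Libraries in place of time points were also taken as the unit of the sign-flip tests, which treats replicates of a time as independent. The differences of 42.9, 66.3, 23.5, 4.06, 4.60, 16.0, 12.5, 6.20 and 2.76 points then had adjusted sign-flip p-values from 1.67e-05 to 0.0167. The log2 width difference had an adjusted sign-flip p-value of 0.0518. No difference between classes changed sign under any setting. The SUZ12 difference between EZH1-only and H3K27me3-only promoters was 13.6 points without the 28 h and 17.6 without the 12 h libraries, the HA-EZH1 difference 2.32 without 12 h, both chosen after seeing the data. The log2 width difference was 0.87 with peaks as deposited and 0.01 with a window of 1 kb. With the replicate number as a block (replicate block, exact sign-flip test), the 9.34 points between profiles in the share of peaks near a TSS had p = 0.25, the smallest 3 pairs allow. These numbers join separate chromatin preparations and do not pair samples.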
